A study of Mus musculus with 6 samples.

Results

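The genes described here are 5 natural killer receptor genes, Klrd1, Klrk1, Klrc1, Klrb1c and Ncr1, and the adaptor gene Hcst, measured in mouse CD4+CD25+ T cells with and without Hdac3. A member's probe sets were all those for which the platform annotation gave exactly 1 gene symbol and that symbol was one of the 6. By this rule 5 of the 6 genes were measured, with 6 probe sets, out of 12393 genes and 22626 probe sets in all. Klrb1c had no probe set of its own, because the single probe set that names it also names its relative Klrb1b. The 5 measured genes all matched the RefSeq gene table by Entrez identifier.

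Total RNA from 6 samples of T cells with the surface markers CD4 and CD25, by which regulatory T cells are commonly isolated, was hybridised to Affymetrix Mouse430a arrays, 1 array a sample. The 3 wild type samples and the 3 Hdac3 deleted samples are both labelled with a C57BL6 background, and the genotype of the second group is HDAC3-fl/fl_FOXP3cre, that is, floxed alleles of the histone deacetylase gene Hdac3 together with a Cre recombinase named for Foxp3, which encodes the transcription factor that defines regulatory T cells. The wild type label names neither the floxed alleles nor the Cre, so the groups may differ in both. The age and sex of the mice, pooling and the number of mice are not given in the labels, so the p-values rest on the spread among these 6 arrays alone, part of which may be technical. A source label of the Hdac3 deleted samples names another deacetylase, HDAC11, whereas both title and genotype give HDAC3. The comparison asks how expression in these cells changes when Hdac3 is deleted.

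The killer lectin-like receptors are type II membrane proteins of natural killer cells and of some T cells, encoded side by side in the natural killer gene complex. Klrk1 encodes NKG2D, an activating receptor for stress-induced ligands, and Klrc1 encodes NKG2A, an inhibitory receptor that reaches the surface as a pair with CD94, the product of Klrd1. Ncr1 encodes NKp46, an activating immunoglobulin-like receptor used to define natural killer cells in mice, and Klrb1c encodes NK1.1. NKG2D has no signalling tail and signals through DAP10, the product of Hcst, which recruits phosphoinositide 3-kinase, while mouse NKG2D can also use DAP12, the product of Tyrobp. Regulatory T cells as a class are not known for these receptors, whereas Hcst is expressed across T cells, natural killer cells and myeloid cells.

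Values are log2 expression, given by sample or as mean ± SD with n = 3 a group, and differences are Hdac3 deleted minus wild type on the log2 scale. Adjusted p-values come from limma with the Benjamini-Hochberg method applied to all 22626 probe sets, and "rose" and "fell" mean adjusted p below 0.05. The low end of the scale is background. The 27 bacterial control probe sets, for which a mouse cell has no transcript, spanned 2.37 to 5.16 over the 6 samples, called the control range below. The 95th percentile of their values was 4.39, so the top of the range is set by a few high values. A fold written "at least" is measured from that top on group means. It allows for background but not for the spread among samples, so the 95% interval of a difference can reach lower. The median over probe sets was 6.28 to 6.29 in the wild type arrays against 6.43 to 6.47 after Hdac3 deletion, and the lowest correlation between samples of 1 group was 0.996. Over all probe sets the median difference was -0.17, and it was -0.33 after median centring and 0.00 after cyclic loess, and the sign of a small difference therefore depends on the scaling. Hdac3 itself fell from 9.04 ± 0.028 to 8.49 ± 0.024, with no information here on whether this probe set covers the floxed exons. In bulk RNA, fewer cells of a type and less RNA per cell cannot be told apart.

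Klrk1, Klrd1 and Klrc1 were higher in all 3 Hdac3 deleted samples than in any wild type sample, all at levels inside or just above the control range. Hcst, the only member measured well above that range in both groups, was 1.72-fold lower in the Hdac3 deleted samples. Ncr1 lay inside the control range in every sample. Thus 4 of the 5 genes passed adjusted p 0.05, 3 higher and 1 lower, where 22.0% of all genes passed higher and 38.0% lower. With the further requirement of a 2-fold difference, which the authors used, 1 of the 5 passed, Klrk1, against 13.5% of all genes. That pass rests on a wild type level inside the control range, and the bound given for Klrk1 (at least 1.41-fold) does not reach 2-fold. The median difference over the 5 genes was 0.94. The groups did not overlap in 4 of the 5 genes, against 67.4% of all genes. Counted by probe set, 5 of 6 passed, 4 higher and 1 lower, against 57.6% of all probe sets, 20.1% higher and 37.4% lower. With 2-fold 1 of 6 passed, against 12.2% in either direction and 7.91% higher, and the groups did not overlap in 5 of 6, against 64.6%.

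**Figure D1:**
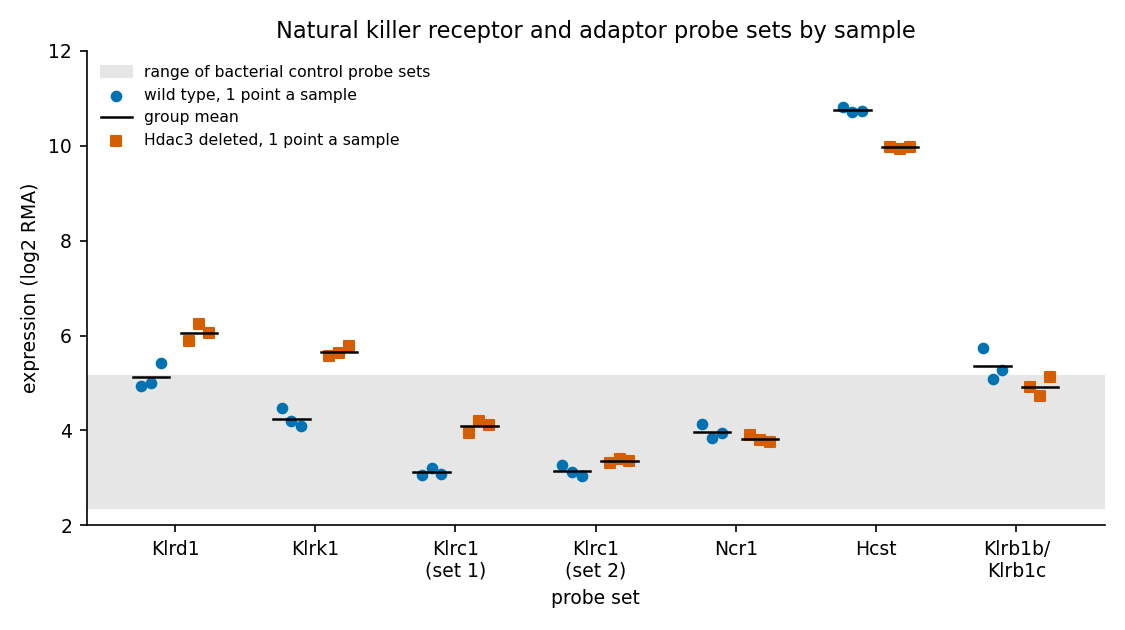
Expression (log2 RMA, vertical axis) of each member probe set and of the probe set shared by Klrb1b and Klrb1c, 1 point a sample, with a black line at each group mean and the range of the 27 bacterial control probe sets shaded. Klrk1 and Klrd1 leave the shaded range in the 3 Hdac3 deleted samples, both Klrc1 sets and Ncr1 stay inside it in all 6, and Hcst lies far above it with lower values in the Hdac3 deleted samples.

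For Klrk1, the NKG2D gene, the wild type values were 4.46, 4.19 and 4.10 and the Hdac3 deleted values 5.57, 5.63 and 5.78. All 3 wild type values lay inside the control range and all 3 Hdac3 deleted values above it, and the groups were separated by a gap of 1.10. The mean rose from 4.25 ± 0.19 to 5.66 ± 0.11, a difference of 1.41 (SE 0.11, 95% interval 1.15 to 1.66, limma adjusted p = 3.13e-05), which is 2.65-fold on the array scale. Because the wild type level lay inside the control range, the true fold cannot be given. Measured from the top of the control range, Klrk1 was at least 1.41-fold higher. A difference this high or higher was seen in 5.69% of all probe sets. Klrk1 is measured by 1 probe set, whose name marks it as able to detect several transcripts of the gene, so the long and short forms of NKG2D, which differ in the adaptors they use, are not separated.

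The Klrk1 promoter is shown because Klrk1 is the member that passed the 2-fold threshold on the deposited scale. It is the RefSeq window from 250 bases before to 50 after the gene's start on the minus strand, at chr6:129623815-129624114 (GRCm38.p6), printed 5′ to 3′ with motif matches in capitals.
Klrk1: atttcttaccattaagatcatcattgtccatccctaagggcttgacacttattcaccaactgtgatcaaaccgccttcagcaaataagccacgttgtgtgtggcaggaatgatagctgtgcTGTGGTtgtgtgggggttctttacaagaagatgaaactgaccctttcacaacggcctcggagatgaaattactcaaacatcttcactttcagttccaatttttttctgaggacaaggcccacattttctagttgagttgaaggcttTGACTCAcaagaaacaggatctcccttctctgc
Both strands were searched for the letters TGTGGT (RUNX factors), GGAAGT (ETS factors), GGTGTGA (T-box factors), TGANTCA (AP-1) and TTCNNNGAA (STAT factors), and no matches overlapped each other here. The Klrk1 window held 1 RUNX match, beginning 129 bases before the start, and 1 AP-1 match, beginning 17 bases after it. Among all 32851 promoter windows of this length, 16.8% held the RUNX letters and 7.81% the AP-1 letters. The Klrb1c window held 1 RUNX and 1 ETS match, and the Klrc1 window held 1 RUNX match and none of the others. The Ncr1 windows overlap almost fully and held the same 2 RUNX matches and none of the others. No window was available for Klrd1. A match is a description of the letters and not of binding.

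Klrd1, which encodes CD94, had wild type values of 4.94, 5.01 and 5.42 and Hdac3 deleted values of 5.87, 6.24 and 6.06. The third wild type sample was the highest of its group and the only one above the control range, and it still lay 0.45 below the lowest Hdac3 deleted sample. The mean rose from 5.12 ± 0.26 to 6.06 ± 0.18, a difference of 0.94 (SE 0.15, 95% interval 0.58 to 1.29, limma adjusted p = 0.00134). With wild type values below the top of the control range set to it, the group means of Klrd1 differed 1.76-fold. This figure allows for background but not for the spread among samples, and the 95% interval of the difference reaches lower. A difference this high or higher was seen in 8.38% of all probe sets.

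Klrc1, the partner of Klrd1, had a pair of probe sets that gave different sizes. The first (1425005_at) gave 3.06, 3.22 and 3.08 for wild type against 3.96, 4.21 and 4.12 after deletion, higher by 0.98 (SE 0.086, limma adjusted p = 5.96e-05). The second (1426182_a_at) measured 3.26, 3.12 and 3.03 against 3.30, 3.40 and 3.35, higher by 0.21 (SE 0.076, limma adjusted p = 0.0461), with a gap between groups of 0.042. All 12 values lay inside the control range, so no fold can be given, and the level of NKG2A transcript cannot be read from either set. The call of the second set was lost under 9 of the 13 other settings of the processing, with a highest adjusted p of 0.532 after median centring.

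For Ncr1, the NKp46 gene, wild type values of 4.13, 3.85 and 3.95 stood against Hdac3 deleted values of 3.90, 3.80 and 3.77. The groups overlapped and every value lay inside the control range. The difference was -0.15 (SE 0.087, 95% interval -0.36 to 0.05, limma adjusted p = 0.163), and it was -0.31 (adjusted p = 0.0148) after median centring, which lowers all Hdac3 deleted values relative to wild type. Over 16 other settings of the processing the adjusted p ran from 0.0148 to 0.973.

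Klrb1c, the NK1.1 gene, cannot be told from Klrb1b by its single probe set. That set gave wild type values of 5.73, 5.09 and 5.27 and Hdac3 deleted values of 4.92, 4.72 and 5.13. The groups overlapped, 2 of 3 wild type samples and none of the Hdac3 deleted samples lay above the control range, and the difference was -0.44 (SE 0.18, limma adjusted p = 0.0717). It was called lower after median centring (-0.60, adjusted p = 0.0219), with a trended robust prior (-0.44, adjusted p = 0.0327), in the replicate block fit (-0.44, adjusted p = 0.0427) and without wild type replicate 2 (-0.57, adjusted p = 0.0366).

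Hcst, which encodes the DAP10 adaptor of NKG2D, stood at 10.82, 10.70 and 10.72 in wild type samples, against 9.98, 9.93 and 9.98 in those with Hdac3 deleted. Both groups were tight and lay 0.72 apart. The mean fell from 10.75 ± 0.066 to 9.96 ± 0.029, a difference of -0.79 (SE 0.062, 95% interval -0.93 to -0.64, limma adjusted p = 3.42e-05), which is 1.72-fold lower (95% interval 1.56 to 1.91). It did not reach the 2-fold threshold. Of all probe sets, 7.83% had a difference as low as this or lower.

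The Hcst promoter is shown because Hcst is the member measured above the control range in every sample, at chr7:30419805-30420104 (GRCm38.p6, minus strand, RefSeq), with the same motifs in capitals.
Hcst: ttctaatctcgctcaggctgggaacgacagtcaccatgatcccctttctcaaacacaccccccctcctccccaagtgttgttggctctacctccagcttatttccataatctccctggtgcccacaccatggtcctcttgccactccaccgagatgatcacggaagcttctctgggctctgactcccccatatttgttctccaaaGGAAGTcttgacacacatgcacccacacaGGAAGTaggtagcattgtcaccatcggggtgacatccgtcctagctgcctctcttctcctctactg
It held 2 ETS matches, beginning 45 and 16 bases before the start, and no RUNX, T-box, AP-1 or STAT letters. The ETS letters were present in 23.8% of all promoter windows.

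The fall of Hcst was smaller than that of the CD3 genes, which mark T cells. Cd3d, Cd3e, Cd3g and Cd247 fell by 1.21, 1.51, 1.56 and 1.59, and their mean level went from 12.17 to 12.26 in wild type to 10.73 to 10.77. Relative to the mean of these 4 genes in each sample, a scale chosen with their fall known, Hcst was higher by 0.68 (SE 0.076, limma adjusted p = 3.85e-05), so its direction turns on that scale. On the same scale 98.6% of all probe sets were higher, with a median of 1.30, so Hcst lay below the median there. Klrk1, Klrd1, the first Klrc1 set and Ncr1 differed by 2.87, 2.40, 2.44 and 1.31 on it. These values include the fall of the CD3 genes and are no folds, since Klrc1 and Ncr1 lay inside the control range in every sample and Klrk1 in every wild type sample.

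**Figure D2:**
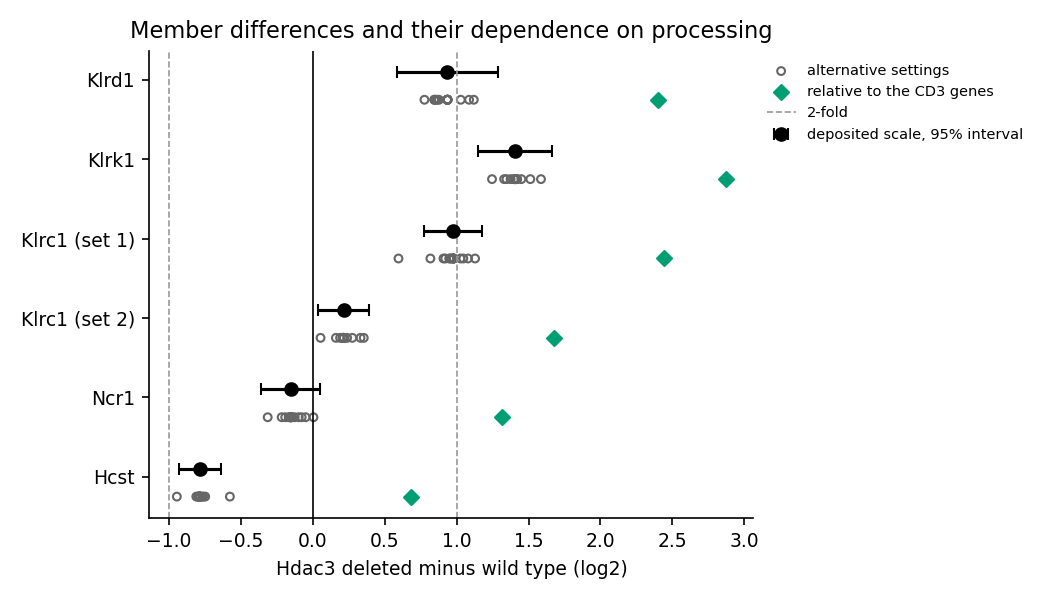
Difference of each member probe set (Hdac3 deleted minus wild type, log2, horizontal axis) on the deposited scale with its 95% interval (black), under each other setting of the processing (open circles) and relative to the CD3 genes (green diamonds), with dashed lines at 2-fold. Klrk1 stays above 1 under every setting that measured it (1.25 to 1.59), Klrd1 and the first Klrc1 set lie on both sides of 1, and Hcst stays between -0.95 and -0.58 except relative to the CD3 genes.

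The direction of Klrk1, Klrd1, Hcst and the first Klrc1 set and their side of adjusted p 0.05 were the same under every setting of the processing that measured them, save Hcst relative to the CD3 genes. The highest adjusted p was 0.00193 for Klrk1, 0.0184 for Klrd1, 0.00201 for Klrc1 and 4.82e-04 for Hcst. The count past 2-fold was less stable, because Klrd1 and Klrc1 lie close to that line. It was 1 on the deposited scale, 2 after quantile normalization again and 3 after cyclic loess.

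The other killer lectin-like receptors lay mostly inside the control range. Of 32 listed genes 13 had a probe set of their own, of which 3 rose, 2 fell and 8 did not pass, with a median difference of -0.15 (22.0% of all genes rose and 38.0% fell). Of these 13, 10 lay inside the control range in every sample, and after median centring 3 rose and 6 fell. Klra2, a family member known from myeloid cells, rose from 3.40 ± 0.26 to 7.85 ± 0.065, at least 6.45-fold (limma adjusted p = 1.87e-07). Klra17, also known from myeloid and plasmacytoid dendritic cells, rose from 3.64 ± 0.28 to 5.92 ± 0.061, at least 1.70-fold. Klrg1, an inhibitory receptor of differentiated T and natural killer cells, fell from 9.0 ± 0.041 to 7.95 ± 0.030, a difference of -1.05 (limma adjusted p = 5.43e-06). Klrc2 and Klrc3, which encode the activating partners of CD94, lay inside the control range in all samples, with differences of -0.15 and -0.33 (limma adjusted p = 0.367 and 0.0415). Klrb1b rose by 0.72 in its brightest set, inside the control range, and differed by -0.17, -0.06 and 0.15 in its other 3 sets.

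Ligands of the receptors were mostly without a probe set of their own. Of 16 listed genes 4 were measured, and none of the NKG2D ligand genes of the Raet1, H60 and Ulbp1 groups nor H2-T23, the ligand of the CD94 pairs, was among them. Of the 4 genes 2 fell and none rose, with 3 lower after median centring, where 38.0% of all genes fell and 22.0% rose. Clec2d, which encodes the ligand of the inhibitory NKR-P1 receptor, fell from 12.1 ± 0.082 to 11.4 ± 0.041 (difference -0.69, limma adjusted p = 9.87e-05). Clec2i, of the same family, fell by 1.22. Clec2h and Clec2g differed by -0.16 and 0.13 (limma adjusted p = 0.223 and 0.271).

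Other adaptors moved in both directions. Tyrobp, whose DAP12 protein also serves NKG2D in mice, was at least 201-fold higher, at 12.8 ± 0.028 in Hdac3 deleted samples against 5.10 ± 0.19 (limma adjusted p = 6.58e-09). Fcer1g, the adaptor of NKp46 and of Fc receptors, rose by 7.09. Of 21 measured adaptor and signalling genes 12 rose, 8 fell and 1 did not pass, with a median of 0.25. Over all genes 22.0% rose and 38.0% fell. After median centring 9 of the 21 rose and 9 fell, and after cyclic loess 12 rose and 5 fell. Syk, the kinase that DAP12 and Fcer1g recruit, rose by 4.62 in its brightest set and by 3.60 and 2.12 in the others, while Cd247, the CD3 zeta adaptor, fell by 1.59 and Sh2d1a, the SAP adaptor of SLAM receptors, fell by 2.98.

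Grb2 and Vav1, which dock with DAP10, the product of Hcst, rose by 0.61 and 0.51 (limma adjusted p = 0.000119 and 0.00156). Pik3r1, the regulatory subunit of phosphoinositide 3-kinase, fell by 0.51 (limma adjusted p = 0.0027). A second Grb2 set differed by -0.06 (limma adjusted p = 0.459), so the Grb2 rise depends on the probe set. The other Pik3r1 sets differed by -0.17 and -0.29 (limma adjusted p = 0.2 and 0.0147). The phosphatase genes Ptpn6 and Ptpn11, which the NKG2A tail recruits, differed by 0.19 and -0.24 (limma adjusted p = 0.0393 and 0.0114), and their other sets, 1 for Ptpn6 and 2 for Ptpn11, did not pass.

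**Figure D3:**
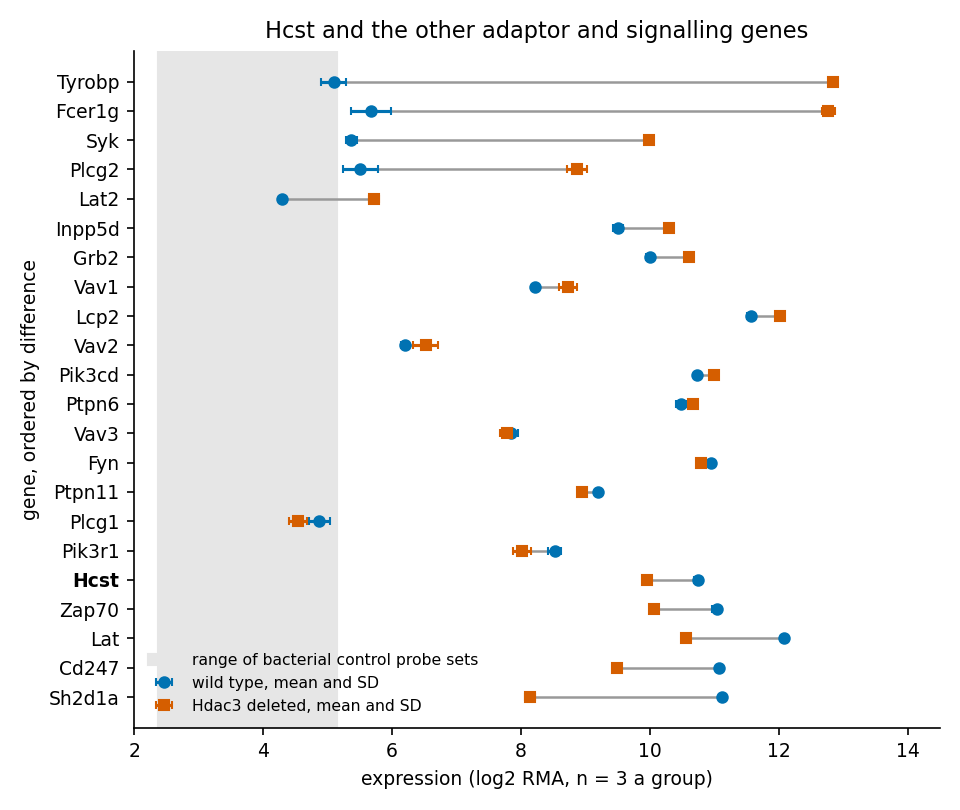
Wild type (blue circles) and Hdac3 deleted (orange squares) expression of Hcst and 21 other adaptor and signalling genes (log2 RMA, mean and SD, n = 3 a group), ordered by their difference, with the range of the bacterial control probe sets shaded. Tyrobp, Fcer1g and Syk leave wild type levels of 5.10 to 5.68 for 9.99 to 12.8, while Hcst sits with Zap70, Lat, Cd247 and Sh2d1a among the genes that fell.

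Other receptors of natural killer cells were split. Of 19 measured genes 11 rose, 5 fell and 3 did not pass, with a median of 0.46. Over all genes 22.0% rose and 38.0% fell. After median centring 9 of the 19 rose and 6 fell. Fcgr3, the low-affinity IgG receptor of natural killer and myeloid cells, was at least 146-fold higher, at 12.3 ± 0.017. Cd244a was at least 9.52-fold higher in its brightest set and at least 1.93-fold in the other. Il15ra, which presents IL-15, rose by 2.36 and 1.51 in its sets. Cd96, a receptor of T and natural killer cells, fell by 3.23.

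Transcription factors and effectors of cytotoxic lymphocytes changed in both directions, where 22.0% of all genes rose and 38.0% fell. Of 11 factors 6 rose and 3 fell (median 0.51). Zeb2 was at least 15.8-fold higher and Id2 rose by 2.55, while Tox and Gata3 fell by 2.44 and 0.94. Of 18 effectors 12 rose and 4 fell (median 0.72). Among those that rose were Ccl5, Gzmb and the granzyme-activating protease Ctsc, up by 3.25, 4.0 and 3.46, and Ccl3, at least 5.64-fold higher. The 4 that fell were Ctsw, Tnfsf10, Xcl1 and Gzmm, with differences of -1.63, -0.71, -0.63 and -0.27. Xcl1 lay inside the control range in every sample. After median centring 6 factors rose and 3 fell, and 10 effectors rose and 5 fell. Both lists hold genes that macrophages and neutrophils also express.

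**Figure D4:**
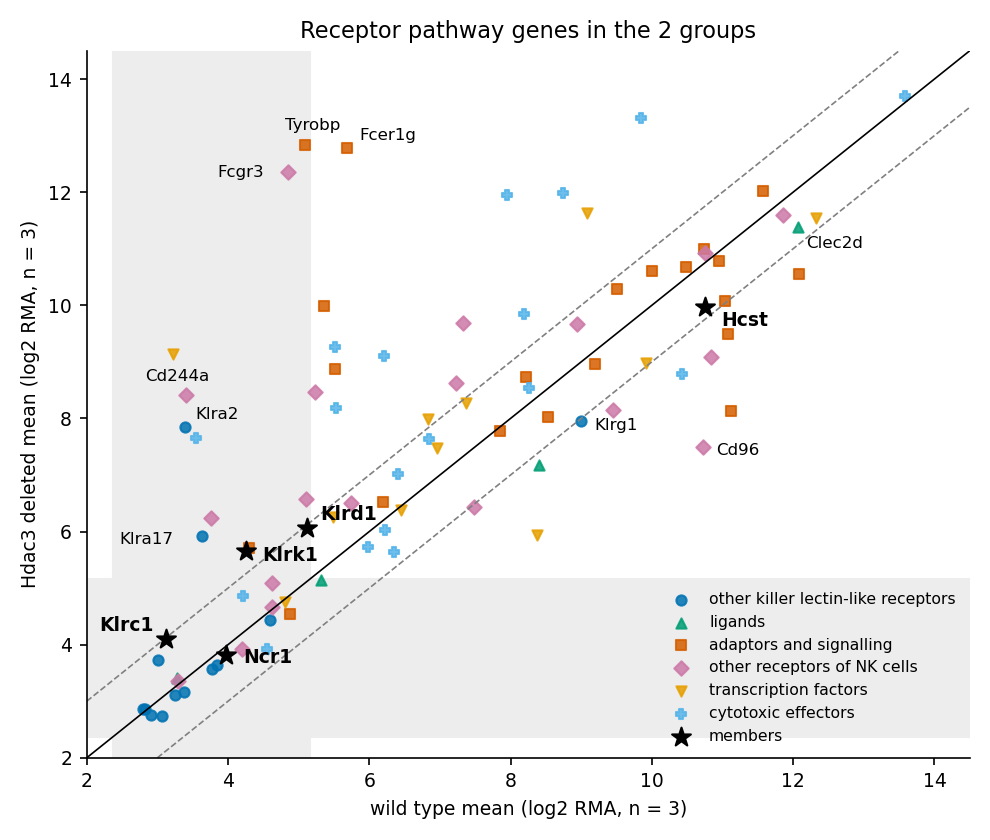
Wild type mean against Hdac3 deleted mean (log2 RMA, n = 3 a group) for the members (stars, the brighter Klrc1 set) and for 6 lists of pathway genes, with the line of equality, dashed lines at 2-fold and the control range shaded on each axis. Klrk1 lies just above the upper dashed line, Klrd1 and Klrc1 lie near it, Hcst lies between the lower dashed line and equality, and Tyrobp, Fcer1g and Fcgr3 stand far above all members.

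Markers of other lymphocytes were mixed. Of 7 measured natural killer cell markers 4 rose and none fell, where 22.0% of all genes rose and 38.0% fell, and after median centring 2 rose and 1 fell. Their mean level ran from 5.66 to 5.73 in wild type, against 6.05 to 6.20 after Hdac3 deletion. Klra7, Klra8 and S1pr5 lay inside the control range in all samples, as Ncr1 did. Nkg7, Eomes and Il2rb were above it in all samples and rose by 1.65, 0.77 and 0.17. The other Il2rb set differed by 0.07 (limma adjusted p = 0.497), and Il2rb was not called after median centring (0.012). Of 4 CD8 T cell markers Gzmk was at least 6.35-fold higher by group means, with a 95% interval that reached down to 4.69-fold. Cd8b1 fell by 1.12 and Cd8a differed by 0.10 (limma adjusted p = 0.475). The mean level of this list was 5.49 to 5.70 in wild type against 5.99 to 6.13. Of 7 gamma delta T cell markers only Sox13 was measured, with a difference of 0.19 (limma adjusted p = 0.314). Of 5 measured innate lymphoid markers Rora rose by 0.60, Gata3 fell by 0.94 and Il7r differed by 0.01, with Zbtb16 and Il5 inside the control range and list means of 7.38 to 7.40 in wild type against 7.24 to 7.30. A second Il7r set fell by 0.35 (limma adjusted p = 0.00535), the other Rora sets differed by 0.38 and 0.03 (limma adjusted p = 0.00986 and 0.841), and after median centring 1 of the 5 rose and 3 fell.

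All 14 measured macrophage markers rose, with a mean level of 5.12 to 5.27 in wild type arrays and 12.06 to 12.09 with Hdac3 deleted, among them Csf1r (7.54), Vcam1 (7.43) and C1qb (at least 390-fold), each in its brightest set. The other C1qb sets were at least 80.9-fold and 151-fold higher. All 11 neutrophil markers rose, from a mean level of 4.62 to 5.01 to 10.70 to 10.74, among them Mpo, S100a8 and S100a9. Of 6 dendritic cell markers 3 rose, Itgax by at least 18.8-fold and Batf3 by at least 35.6-fold, and Flt3 by 0.38. The mean levels of this list were 4.62 to 4.72 in wild type and 6.30 to 6.41 with Hdac3 deleted. Zbtb46, Xcr1 and Cd209a lay inside the control range in every sample and did not pass. After median centring 2 of the 6 rose and 1 fell. Of 6 B cell markers Cd79b rose by 1.01 and 4 lay inside the control range, Pax5 and the 1 that fell among them, and Cd79a differed by -0.26 (limma adjusted p = 0.0757). Of 8 regulatory T cell markers 1 rose and 5 fell, Izumo1r by 2.03 and Tnfrsf18 by 0.86. Ctla4 differed by 0.07. Foxp3 lay inside the control range in all 6 samples, so its level cannot be read and absence of its transcript is not shown. Tnfrsf18, Izumo1r and Ctla4 stood at 11.8, 11.7 and 11.2 in wild type. Beside the counts for these cell types, 22.0% of all genes rose and 38.0% fell. The part of any of these cells in the differences of Klrk1, Klrd1, Klrc1 and Hcst was not tested.

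The position of the members on the chromosome was examined with the gene order of RefSeq (GRCm38.p6), in a region chosen after the values were seen. Klrd1 and Klrk1 are neighbours on chromosome 6, followed by Klrc3, Klrc2 and Klrc1. Of 45 protein-coding genes from Klrb1c to Klra2, 21 had a probe set of their own, of which 10 rose, 4 fell and 7 did not pass. Over all genes 22.0% rose and 38.0% fell. Of the 21, 13 lay inside the control range in every sample. Klrb1b, Clec1b, Olr1 and Klrc1, which rose, and Clec2m and Klrc3, which fell, were among them. Clec7a, the beta-glucan receptor of myeloid cells, had the largest difference of the region, from 5.01 ± 0.27 to 10.8 ± 0.042, at least 47.0-fold. Gabarapl1, an autophagy gene next but 1 to Klrd1 in this order, rose by 0.89. Klrc3 and Klrc2 lie between Klrk1 and Klrc1, and their differences were below 0.

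**Figure D5:**
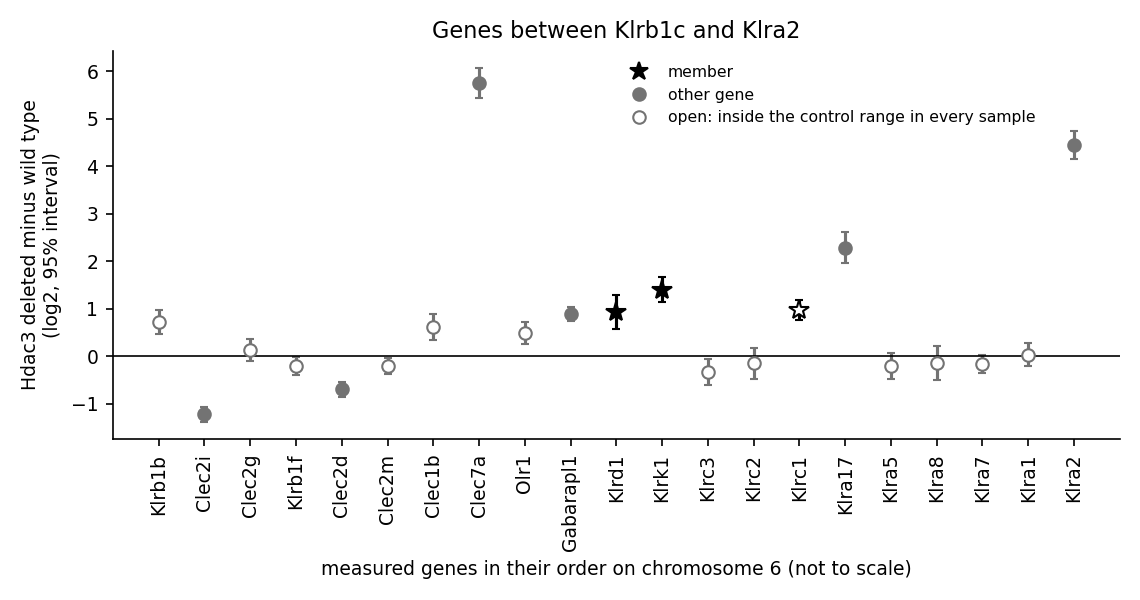
Difference (Hdac3 deleted minus wild type, log2, with 95% interval) of the 21 measured genes from Klrb1c to Klra2 in their order on chromosome 6, members as stars and genes inside the control range in every sample as open symbols. Klrd1, Klrk1 and Klrc1 lie between 0.94 and 1.41, with Klrc3 and Klrc2 below 0 among them, and Clec7a and Klra2 stand highest at 5.75 and 4.45.

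Hcst and Tyrobp are direct neighbours on chromosome 7, and they moved in opposite directions, by -0.79 and 7.74. Of the 7 measured genes in the window of 5 genes on each side of Hcst, Hcst included, 1 rose, Tyrobp, and 4 fell. The other genes that fell were Aplp1, Sdhaf1 and Syne4, by 1.09, 0.51 and 0.40. Around Ncr1, also on chromosome 7, 2 of 8 measured genes rose and none fell. For both windows the shares over all genes were 22.0% higher and 38.0% lower.

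Genes with the pattern most like each member were found by the Euclidean distance over the 6 samples after each gene was centred on its own mean, among 8839 genes (8840 for Klrc1) whose mean lay above the control range in at least 1 group. For Hcst these were Mrps24, Fam162a and Clstn1, at distances of 0.033, 0.066 and 0.067. For Klrk1 they were Pi16, Bub1b and Crat (0.14, 0.15 and 0.16), for Klrd1 Cask, Mdm1 and Gpr146 (0.17, 0.19 and 0.24), and for Klrc1 Stard4, Bcl2l2 and Srgap2 (0.11, 0.14 and 0.15). With 2 groups that differ, this measure mostly reads the size of the group difference, and 2013 genes lay within 0.5 of Hcst and 243 within 0.5 of Klrk1.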

How the data were processed

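The 6 arrays were normalised by the authors with RMA (robust multiarray average) in MAYDAY 2.12, per the labels, and compared by a Student's test at adjusted p below 0.05 and 2-fold. Values were deposited on a log2 scale, 1 for each probe set. RMA gives arrays a common distribution of probe intensities before they are summarised by probe set, so a change in total RNA cannot be seen. The medians of the summarised values still differed between the groups. The number of arrays limits the precision.

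Of 22690 probe sets 64 Affymetrix controls were left out. Of the other 22626, 20380 had 1 symbol in the platform annotation, 691 several and 1555 none. By Entrez identifier 20351 of the first matched RefSeq (GRCm38.p6), with 0 symbols changed. The brightest probe set stands for a gene. Titles gave each sample's group. The two-sided limma 3.58.1 fit (R 4.3.3, lmFit and eBayes) covered all 22626 probe sets. The code was checked on simulated data with independent noise and few changed probe sets. That check does not cover data in which most probe sets differ, as here, where 57.6% passed. Where a group lay in the bacterial control range on some or all arrays, values below its top were set to it and the fold written "at least". This bound was taken on group means and carries no sampling error.

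Members and lists were chosen with earlier results of these data known. Named are all members, up to 4 genes a pathway list by smallest p and those whose product binds a member's, the 3 brightest of each marker list, the 3 nearest genes to each called member, and Hdac3. Others were chosen after their values were seen. Python 3.11.15 (pandas 2.3.3, matplotlib 3.10.9) made tables and figures. Replicate numbers did not pair the samples: deviations of same-numbered samples correlated at 0.092, 0.084 and -0.19.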

Additional observations from a re-analysis of the deposited data

How the results depend on the processing

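Other settings were the methods' t-test, the replicate block, cyclic loess, median centring, quantile normalization again, a trended robust prior, array weights, each sample left out, the dimmest 33.3% of probe sets left out, sets named for several transcripts left out, a gene's probe sets averaged or reduced to 1, and a 1.5-fold threshold. The scale relative to the CD3 genes was chosen after seeing the data, for members and counts only. The count of member genes past 2-fold, 1 as deposited, was 2 with quantile normalization again, 3 with cyclic loess, 4 at 1.5-fold and 4 relative to the CD3 genes. It was 0 without the dimmest probe sets, which left 2 genes, and 0 without sets named for several transcripts, which left out Klrk1. It was 1 to 3 with a sample left out: 2 without wild type replicate 2 or 3 and 3 without Hdac3 deleted replicate 1. The second Klrc1 set lost its call with the methods' t-test (0.21, adjusted p = 0.0760), the replicate block (0.21, 0.0823), a trended robust prior (0.21, 0.117) and median centring (0.053, 0.532). Leaving out a sample gave 0.16 to 0.27, and the call was kept only without wild type replicate 1. Ncr1 was called lower with median centring (-0.31, adjusted p = 0.0148) and turned to 0.0040 with cyclic loess and 1.31 relative to the CD3 genes, where Hcst turned to 0.68. The replicate block changed the call of no other member probe set and left the count over all probe sets at 2769. That count was 1816 without sets named for several transcripts (15605 tested), 1673 with 1 probe set a gene (12393 tested), 5841 at 1.5-fold and 18298 relative to the CD3 genes. Among named genes near 0, the sign turned for Clec2h with cyclic loess (0.022), and with median centring for Clec2g (-0.028), Cd8a (-0.056), Il7r (-0.15), Ctla4 (-0.088) and Pax5 (-0.11). Il7r also turned with the mean of its probe sets (-0.17) and, with a sample left out, ran from -0.0095 to 0.027, while Pax5 ran from -0.015 to 0.11. The causes of these changes were not tested.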
